A study of Mus musculus with 6 samples.

Results

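The basement membrane is the sheet of extracellular matrix that underlies epithelia and surrounds vessels and muscle fibres, and integrins are the heterodimeric cell surface receptors that bind it. Genes were taken by symbol: laminin chains (Lama, Lamb, Lamc), type IV collagen chains (Col4a), integrin chains (Itga, Itgb), the linkers and proteoglycans Nid1, Nid2, Hspg2 and Agrn, and dystroglycan, Dag1. The array measured 39 such genes of 8251 named in all, through 60 of its 12422 probe sets. Where a gene had several, the one with the highest mean over the arrays stands for it. They were 9 laminin chains, 5 type IV collagen chains, 19 integrin chains, 4 linkers or proteoglycans, Dag1, and Itgb1bp1, which is not a chain but a protein that binds the tail of the beta 1 chain.

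RNA came from whole mouse kidneys (metanephros) at E14.5, counting the day of the plug as day 0.5. The mutant samples were 2 pools of 8 to 10 kidneys from 4 to 5 embryos with the Wnt4tm1Amc allele, labelled as strain 129, and the wild-type samples were 4 pools of 2 kidneys labelled CD-1. Zygosity of the mutants is not stated in the labels, and the protocol text given for all 6 samples describes CD-1 matings, so that genotype, strain label and pool size cannot be told apart. Wnt4 is the secreted signal that induces the renal vesicle, the first epithelium of the nephron, and the comparison was designed to find genes expressed in that structure and in what it forms. Nothing in the labels says that pools came from separate litters, so the p-values measure the spread between these pools.

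Laminins are trimers of an alpha, a beta and a gamma chain that polymerise into a sheet on the cell surface, and type IV collagen forms a second network that nidogens and perlecan tie to the first. Cells hold on to laminin through integrins of the alpha 3, alpha 6 and alpha 7 kind and through dystroglycan. In the developing kidney the mesenchyme lays down a basement membrane as it turns into epithelium, and laminin alpha 1 with integrin alpha 6 is known for its part in that conversion in mouse organ culture.

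Signals are linear probe set intensities in arbitrary units, scaled by the authors to a common level. Median signals were 173 to 191, and log2 signals correlated at 0.967 between the mutant arrays, 0.949 to 0.969 among wild-type arrays and 0.944 to 0.955 between the groups. The Wnt4 probe set read 74.2 and 34.5 on the mutant arrays, against 829, 739, 946 and 699 on the wild-type arrays. The difference was -3.59 ± 0.24 (SE, limma, adjusted p = 6.11e-05). Whether its probes lie inside the disrupted stretch of Wnt4 is not known here.

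Col4a1 and Col4a2, the type IV collagen chains made in nearly all basement membranes, lie head to head on mouse chromosome 8, and both were among the genes that fell. The RefSeq promoter windows of both (GRCm38.p6, 250 bases before to 50 after the gene start) are shown because they share sequence. Col4a1 is on the minus strand at chr8:11312777-11313076 and Col4a2 on the plus strand at chr8:11312555-11312854, each written 5′ to 3′ along its own gene. Capitals mark the 78 bases that both windows hold, as reverse complements of each other.
Col4a1: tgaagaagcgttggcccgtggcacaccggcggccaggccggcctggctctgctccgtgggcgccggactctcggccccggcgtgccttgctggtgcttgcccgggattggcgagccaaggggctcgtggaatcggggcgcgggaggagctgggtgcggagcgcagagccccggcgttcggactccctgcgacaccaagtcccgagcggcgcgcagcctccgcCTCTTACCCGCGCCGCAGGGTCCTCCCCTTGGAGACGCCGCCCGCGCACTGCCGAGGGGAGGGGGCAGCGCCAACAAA
Col4a2: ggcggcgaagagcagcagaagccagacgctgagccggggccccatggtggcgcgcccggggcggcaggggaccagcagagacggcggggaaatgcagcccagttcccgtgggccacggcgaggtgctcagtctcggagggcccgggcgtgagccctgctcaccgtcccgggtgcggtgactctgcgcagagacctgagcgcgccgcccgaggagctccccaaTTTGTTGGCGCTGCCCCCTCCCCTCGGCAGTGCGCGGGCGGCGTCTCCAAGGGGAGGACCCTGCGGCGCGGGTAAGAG
The annotated gene starts lie 21 bases apart, inside the shared stretch. On both strands the GC box letters GGGCGG occurred once in the Col4a1 window and 3 times in the Col4a2 window, with 1 match in the shared bases. The letters CCAAT occurred once in each window and TATAAA in neither. The CCAAT match of Col4a1 lies outside the shared bases, and that of Col4a2 runs across their edge. Among 27025 mouse promoter windows of the same length, 35.9% held GGGCGG, 37.9% CCAAT and 14.2% TATAAA, and the motifs do not overlap one another.

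Of the 39 genes, 26 were bright enough to test (signal above the 40th percentile of its array, 101.1 to 110.4, on at least 2 arrays), and 5 of these fell in the mutant while none rose. The 5 were Lama1, Itga6, Col4a2, Dag1 and Col4a1, in order of size. Differences are mutant minus wild type on the scale of log2(signal + 16), tested with limma at an adjusted p of 0.05 over all 7981 probe sets tested. Of all 6082 genes tested, 11.5% passed, 6.35% lower and 5.13% higher, against 19.2% of the 26. At an unadjusted p under 0.05, 9 of the 26 were lower and 3 higher. In 15 of the 26 genes, or 57.7%, both mutant arrays were beyond the wild-type range on the same side, against 39.1% of all genes tested. The median difference of the 26 was -0.13, beside 0.01 over all genes tested. Itga8, Itgax and Itgb2l passed the filter through wild-type arrays alone, and without these 3 the median of the other 23 was -0.09.

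**Figure D1:**
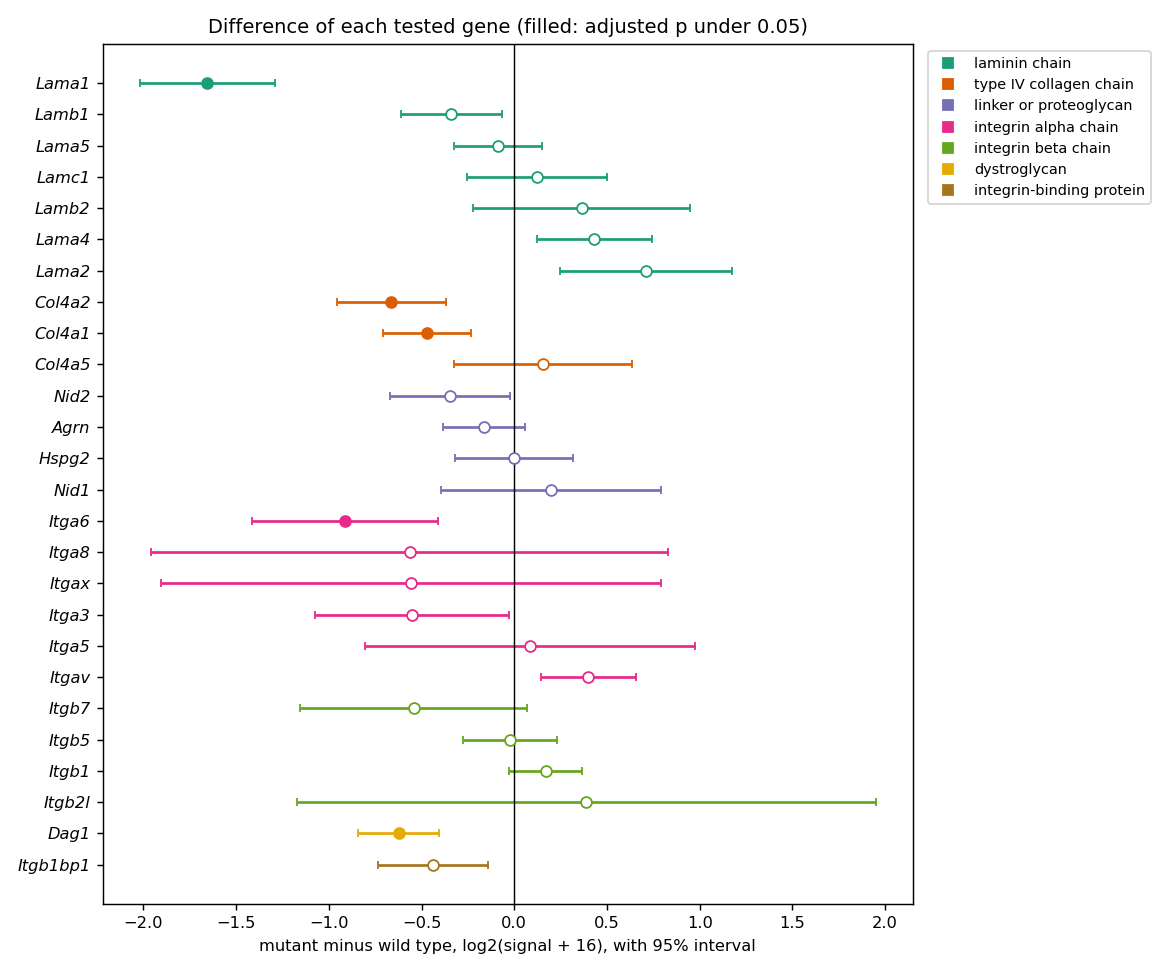
Difference between mutant and wild-type kidneys (x axis, log2(signal + 16), with 95% intervals from limma) for each of the 26 tested genes, ordered by role and coloured by it, with filled points for an adjusted p under 0.05. Lama1 lies farthest left at -1.65, the other filled points are Col4a2, Col4a1, Itga6 and Dag1, and no gene to the right of 0 is filled.

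Among laminin chains, Lama1 was the 1 of 7 tested that fell, and the median difference was 0.13. Lama1, the alpha chain of the first embryonic laminin and of tubule basement membrane, had signals of 295 and 289 on the mutant arrays, against 1038, 799, 859 and 1166 on the wild-type arrays. The mutant arrays lay close together and far below every wild-type array. Lama1 averaged 292 ± 4.18 (SD, n = 2) in mutant and 965 ± 168 (SD, n = 4) in wild-type kidneys, a difference of -1.65 ± 0.16 (SE, limma, adjusted p = 4.18e-04), or 3.15-fold lower on this scale. It passed under all 16 alternative settings, from -1.74 to -1.52. In whole kidneys, fewer cells of a type and less RNA per cell cannot be told apart.

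The chains that join Lama1 in laminin 111 did not show a change of that size. Lamb1, the beta 1 chain, had 699 and 858 on the mutant arrays, against 1071, 1010, 924 and 938 on the wild-type arrays. The mutant signals were the lowest of the 6, but the difference of -0.34 ± 0.12 (SE) did not pass (limma, adjusted p = 0.111), and a further Lamb1 probe set had -0.21. Lamc1, the gamma 1 chain that most laminins share, had 969 and 995 on the mutant arrays, against 738, 1055, 1067 and 785 on the wild-type arrays. These groups overlapped, with a difference of 0.13 (95% interval -0.25 to 0.50). That probe set has the _f_at suffix, and the other Lamc1 probe set was below the filter, at 22.17 to 69.15. Lama5, the alpha chain of the mature tubule, collecting duct and glomerulus, had 582 and 595 on the mutant arrays, against 624, 608, 630.0 and 642 on the wild-type arrays. Its groups lay close to each other without overlapping, and the difference was -0.09 (95% interval -0.33 to 0.15). Another Lama5 probe set had 0.23, with both mutant arrays above the wild-type range, so the sign depends on the probe set.

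The alpha chains of muscle and vessels lay on the other side of 0 without passing. Lama2, the alpha chain of muscle and of mesenchymal basement membranes, had 237 and 334 on the mutant arrays, against 164, 161, 176 and 162 on the wild-type arrays. The mutant arrays were above the wild-type range and differed more from each other than the wild-type arrays did. The difference was 0.71 ± 0.20 (SE, limma, adjusted p = 0.0601). Lama2 passed under 2 of 15 alternatives, without a variance trend (adjusted p = 0.0441) and with array weights (adjusted p = 0.0378). Without mutant replicate 2 its difference was 0.47. Lama4, the alpha chain of endothelial and mesenchymal basement membranes, had 1388 and 1561 on the mutant arrays, against 1135, 893, 1115 and 1232 on the wild-type arrays. Both mutant arrays were again above the range, with a difference of 0.43 ± 0.14 (SE, limma, adjusted p = 0.0774). Lama4 passed under 2 of 16 alternatives, without wild-type replicate 4 (0.49, limma, adjusted p = 0.0404) and with array weights (0.43, adjusted p = 0.03). Without mutant replicate 2 its difference was 0.35. Lamb2, the beta chain that replaces beta 1 in the mature glomerulus, had 338 and 339 on the mutant arrays, against 403, 244, 195 and 235 on the wild-type arrays. Wild-type replicate 1 lay above the mutants and the other wild-type arrays below them, and the difference was 0.36 (95% interval -0.22 to 0.95).

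**Figure D2:**
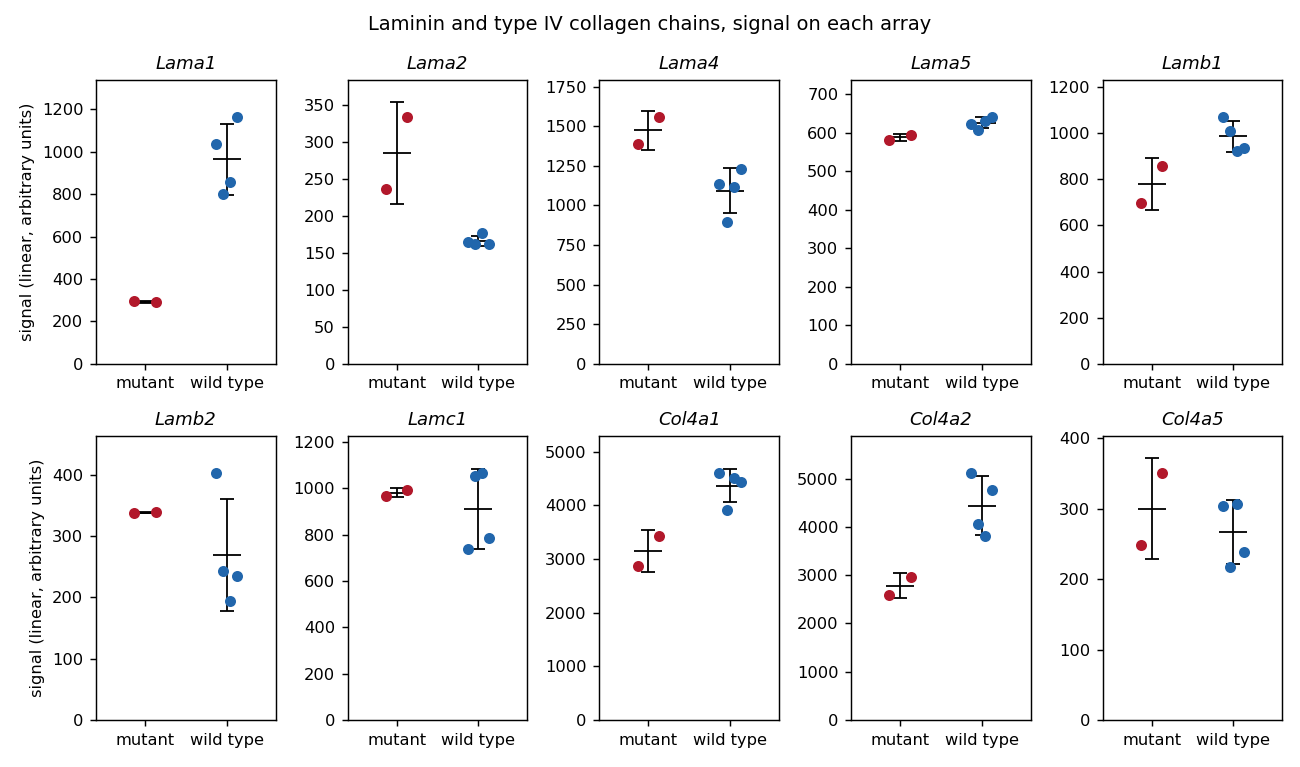
Linear signal (y axis, arbitrary units, from 0) of 7 laminin and 3 type IV collagen chains on each of 2 mutant and 4 wild-type arrays, with mean and SD. The mutant points lie apart below the wild-type points for Lama1, Lama5, Lamb1, Col4a1 and Col4a2 and above them for Lama2 and Lama4.

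Marker lists of the cells around these chains moved as well. Beside the marker counts here and below stand the 6.35% of all genes tested that fell and the 5.13% that rose. Of 12 renal vesicle and tubule markers tested, Wnt4 itself among them, 11 fell, none rose and Hnf4a did not pass (-1.68, limma, adjusted p = 0.23). Of the 12, 7 passed the filter through wild-type arrays alone, so their place among the tested genes rests on the group where they are high. Their summed signal was 908 to 1093 on the mutant arrays, against 6135 to 8166 on the wild-type arrays. Of 6 nephron progenitor markers, 2 fell (Uncx, -1.33, and Cited1, -0.76), none rose and 4 did not pass, Six2 (-0.11) among them. The progenitor sum was 6147.5 to 6322.9 on the mutant arrays, against 8053.8 to 9084.5 on the wild-type arrays. Of 14 stromal markers, 6 rose and 1 fell, and the sum was 44600 to 47491 on the mutant arrays, against 26498 to 33694 on the wild-type arrays. Of 10 skeletal muscle markers tested, 7 rose and none fell, with sums of 6351 to 6773 on the mutant arrays, against 1926 to 2549 on the wild-type arrays, while Tnnt3, Myh3, Myh8 and Chrna1 were below the filter. Tnnc1, the largest of the 7 rises at 2.76, was above the filter on mutant arrays alone. Of 6 smooth muscle and mesangium markers tested, 2 fell (Tagln, -1.32, also in the stromal list, and Mcam, -0.94) and none rose, with sums of 1642 to 1667 on the mutant arrays, against 2328 to 2838 on the wild-type arrays. Myh11, which did not pass, was above the filter on wild-type arrays alone. Of 5 erythroid genes tested, 3 rose and none fell, the 3 being globins of the embryo (Hba-x, 1.78, Hbb-y, 1.66, and Hbb-bh1, 2.18, the last above the filter on mutant arrays alone), while Hba-a1 had -0.0039 (limma, adjusted p = 0.987). The part of these cell types in the values of Lama1, Lama2 and Lama4 was not tested.

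Of the type IV collagen chains, 2 of the 3 tested fell, beside 6.35% of all genes tested. With 3 genes tested and 2 below the filter, that share does not describe the family. Col4a1 had 2872 and 3428 on the mutant arrays, against 4605, 3915, 4504 and 4432 on the wild-type arrays. Col4a2 had 2598 and 2967 on the mutant arrays, against 5120.4, 4058, 3805 and 4768 on the wild-type arrays. In both genes every mutant array was below every wild-type array. Col4a1 averaged 3150.1 ± 393 (SD, n = 2) in mutant and 4364 ± 308 (SD, n = 4) in wild-type kidneys, a difference of -0.47 ± 0.10 (SE, limma, adjusted p = 0.0233). Col4a2 averaged 2783 ± 261 (SD, n = 2) in mutant and 4438 ± 611 (SD, n = 4) in wild-type kidneys, a difference of -0.66 ± 0.13 (SE, limma, adjusted p = 0.0134). These are 1.39-fold and 1.58-fold falls. Leaving out either mutant array ended both calls: Col4a1 had -0.34 (adjusted p = 0.234) without mutant replicate 1 and -0.60 (0.0527) without mutant replicate 2, and Col4a2 had -0.57 (0.145) and -0.76 (0.0643). Col4a1 was also lost without wild-type replicate 1 (-0.44, adjusted p = 0.0612) and without wild-type replicate 3 (-0.46, adjusted p = 0.0522). Without a variance trend neither passed (adjusted p = 0.0844 for Col4a1 and 0.0586 for Col4a2).

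Col4a5, which joins Col4a3 and Col4a4 in the network of the mature glomerulus, had 249 and 351 on the mutant arrays, against 304, 218, 307 and 238 on the wild-type arrays. The groups overlapped, and the difference was 0.15 (95% interval -0.33 to 0.64). Col4a3 and Col4a4 were below the filter on all 6 arrays, at 3.16 to 17.2 and 8.82 to 44.8. Endothelium, which also makes Col4a1 and Col4a2, had 4 of 13 markers lower and none higher. The 4 were Nos3 (-1.76), Emcn (-0.63), Eng (-0.58) and Icam2 (-0.56). The other 9 did not pass, Cdh5 (-0.10) and Kdr (0.12) among them. Of the 13, 2 passed the filter through wild-type arrays alone, Nos3 being 1 of these. The endothelial sum was 7063 to 7213 on the mutant arrays, against 8766 to 9220 on the wild-type arrays. Its part in the collagen values was not tested.

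None of the 4 linkers and proteoglycans passed, and 1 (Nid2) was lower at an unadjusted p under 0.05. Nid2, nidogen 2, which bridges laminin and collagen IV, had 563 and 695 on the mutant arrays, against 943, 789, 757 and 728 on the wild-type arrays. Both mutant arrays were below the wild-type range, with a difference of -0.35 ± 0.14 (SE, limma, adjusted p = 0.157). Its relative Nid1 had 182 and 196 on the mutant arrays, against 148, 177, 221 and 120 on the wild-type arrays, and these overlapped (0.20, 95% interval -0.40 to 0.79). Hspg2, perlecan, the main heparan sulfate proteoglycan of most basement membranes, averaged 557 ± 56.0 (SD, n = 2) in mutant and 559 ± 65.0 (SD, n = 4) in wild-type kidneys. The interval of its difference was -0.32 to 0.32. Agrn, agrin, the heparan sulfate proteoglycan known from the glomerulus and the neuromuscular junction, had 2019 and 1988 on the mutant arrays, against 2122, 2083, 2348 and 2458 on the wild-type arrays. Its difference was -0.16 (95% interval -0.38 to 0.06), and another Agrn probe set had 0.07.

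Of the 10 integrin chains tested, 1 fell, none rose and 9 did not pass. At an unadjusted p under 0.05, 2 were lower (Itga6 and Itga3) and 1 was higher (Itgav). Differences of integrin chains spanned -0.91 to 0.40 and those of laminin chains -1.65 to 0.71, so both families lay on both sides of 0. The integrin median was -0.28, but -0.02 over the 7 chains above the filter on an array of each group, and the laminin median was 0.13. In each family 1 alpha chain fell, which is 10.0% of the integrin and 14.3% of the laminin chains tested and near the 11.5% of all genes tested.

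Itga6, the alpha chain of laminin-binding integrins of epithelia, had 184 and 244 on the mutant arrays, against 412, 299, 495 and 473 on the wild-type arrays. Both mutant arrays were below the wild-type range. Itga6 averaged 214 ± 42.2 (SD, n = 2) in mutant and 420.0 ± 87.8 (SD, n = 4) in wild-type kidneys, a difference of -0.91 ± 0.22 (SE, limma, adjusted p = 0.0328), or 1.88-fold lower. The call was lost when any array but wild-type replicate 2 was left out: it had -0.72 without mutant replicate 1, -1.10 without mutant replicate 2, -0.91 without wild-type replicate 1, -0.83 without wild-type replicate 3 and -0.85 without wild-type replicate 4 (adjusted p = 0.0511 to 0.236). It was also lost with no filter (adjusted p = 0.0552) and without a variance trend (adjusted p = 0.0679), and it passed under 8 of 16 alternatives. The marker sums of renal vesicle and tubule given above moved the same way, and their part in Itga6 was not tested.

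Itga3, the other laminin-binding alpha chain of epithelia and podocytes, had 224 and 173 on the mutant arrays, against 356, 256, 363 and 230.02 on the wild-type arrays. The groups did not overlap, though mutant replicate 1 and wild-type replicate 4 were close. Its difference was -0.55 ± 0.23 (SE, limma, adjusted p = 0.168), and its second probe set had -0.55 too (adjusted p = 0.19). Itga3 passed under 1 of 16 alternatives, without wild-type replicates 2 and 4 (-0.82, limma, adjusted p = 0.0372). Those were its lowest wild-type arrays. Itga8, whose alpha 8 beta 1 integrin on kidney mesenchyme binds nephronectin, had 95.1 and 82.0 on the mutant arrays, against 281, 35.2, 159 and 197 on the wild-type arrays. Wild-type replicate 2 lay below the mutants and the other 3 above, leaving a wide interval (-0.56, from -1.96 to 0.83). Itga5, the fibronectin receptor chain, also overlapped, at 125 and 184 on the mutant arrays and 84.0 to 212 on the wild-type arrays (0.09, 95% interval -0.80 to 0.97).

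Itgav, the alpha chain of receptors for vitronectin, fibronectin and latent TGF-beta, lay on the other side of 0. It had 2790 and 3058 on the mutant arrays, against 2416, 2438, 2037 and 1989 on the wild-type arrays. The mutant arrays were above the range, with a difference of 0.40 ± 0.11 (SE, limma, adjusted p = 0.0572). It passed under 3 of 16 alternatives. These were quantile normalization (0.42, adjusted p = 0.0466), the stricter filter, the 60th percentile (0.40, adjusted p = 0.0453), and array weights (0.39, adjusted p = 0.0266). Its other probe sets had -1.44 and -0.39, both with intervals that span 0. The first of these read 312 and 15.9 on the mutant arrays, so the sign for Itgav depends on the probe set.

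The beta chains did not pass. Itgb1, the partner of most alpha chains that bind basement membrane, had 8438 and 8677 on the mutant arrays, against 7857, 7395, 8188 and 7052 on the wild-type arrays. The mutant arrays were above the range, yet the difference was 0.17 (95% interval -0.03 to 0.36), and the second probe set had 0.08. Itgb5, a partner of alpha v, averaged 895 ± 98.9 (SD, n = 2) in mutant and 907 ± 53.2 (SD, n = 4) in wild-type kidneys, with an interval of -0.27 to 0.23. Itgb4, the partner of alpha 6 in the hemidesmosomes of stratified epithelia, was below the filter on all arrays, at 21.8 and 32.5 on the mutant arrays and 30.8 to 56.3 on the wild-type arrays. Itgb1bp1 had 410 and 364 on the mutant arrays, against 507, 594, 513 and 511 on the wild-type arrays. Its groups did not overlap (-0.44 ± 0.13, SE, limma, adjusted p = 0.0656), but its other probe sets had 0.16 and 0.99.

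**Figure D3:**
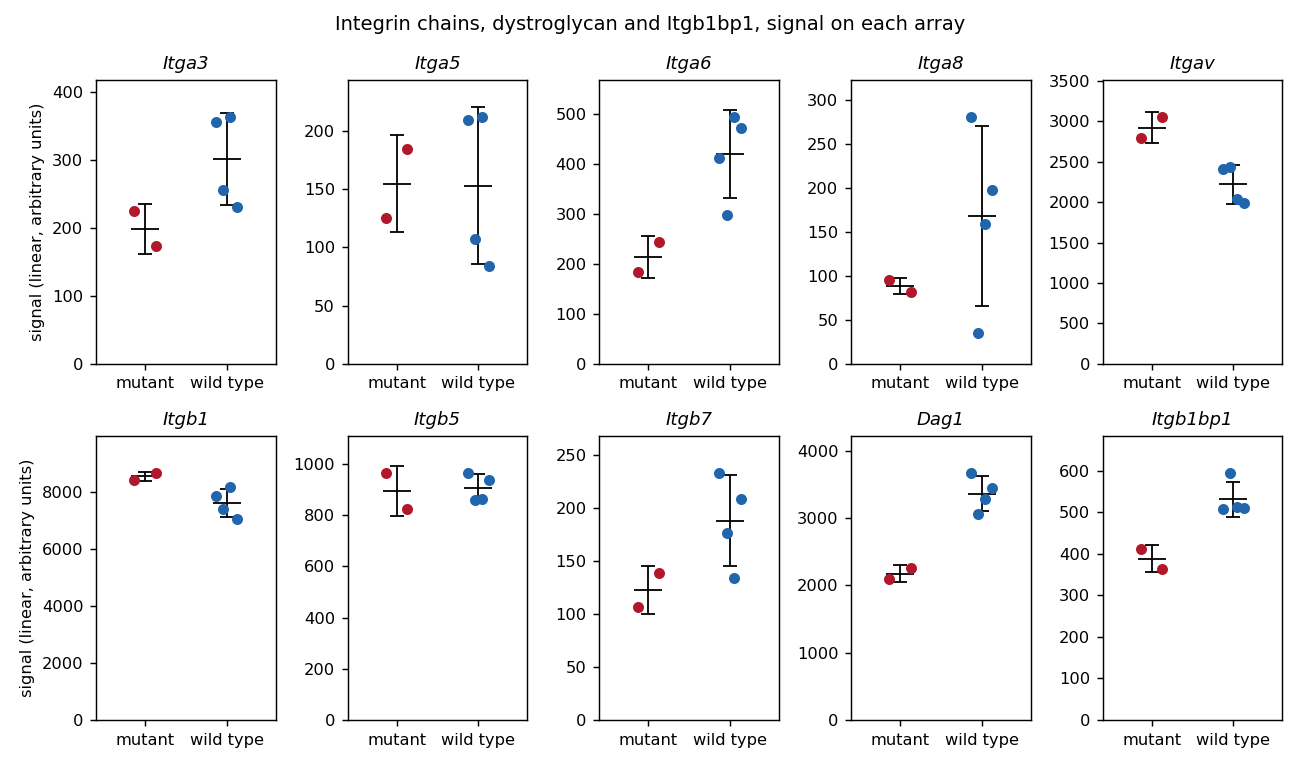
Linear signal (y axis, arbitrary units, from 0) of 8 integrin chains, Dag1 and Itgb1bp1 on each of 2 mutant and 4 wild-type arrays, with mean and SD. Itga6 and Dag1 lie lower in the mutant, while Itgb1 and Itgav lie a little higher and Itga8 overlaps.

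Dag1 encodes dystroglycan, the laminin receptor that links the basement membrane to the cytoskeleton through dystrophin or utrophin. It had 2089 and 2261 on the mutant arrays, against 3669.9, 3058, 3277 and 3451 on the wild-type arrays. All mutant signals were below all wild-type signals, by a gap larger than the range within either group. Dag1 averaged 2175 ± 122 (SD, n = 2) in mutant and 3364 ± 260 (SD, n = 4) in wild-type kidneys, a difference of -0.62 ± 0.10 (SE, limma, adjusted p = 0.00424), or 1.54-fold lower. The call was lost without mutant replicate 1 (-0.57, adjusted p = 0.0679). A second probe set had -0.35 (adjusted p = 0.26).

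**Figure D4:**
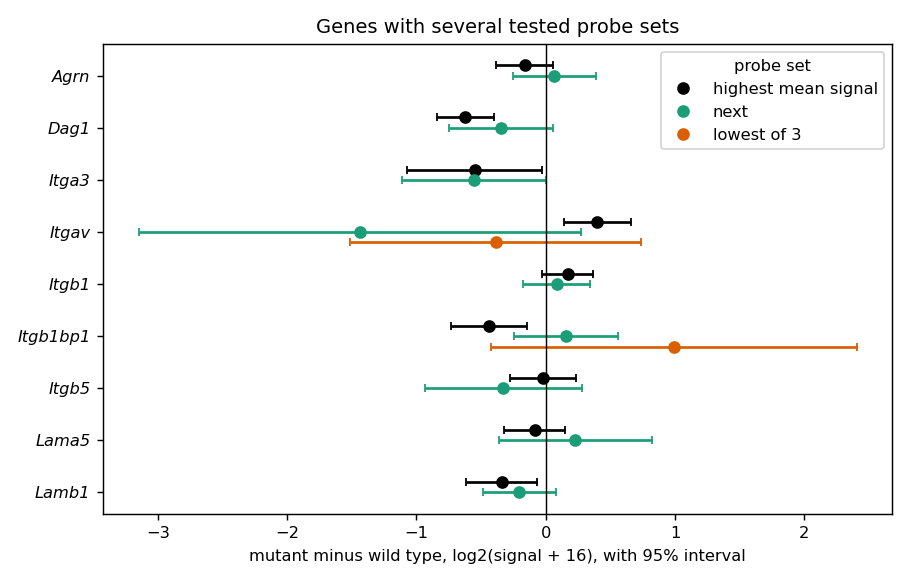
Differences (x axis, mutant minus wild type, log2(signal + 16), 95% intervals) at each tested probe set of the 9 genes with several. The signs differ for 4 genes (Agrn, Itgav, Itgb1bp1 and Lama5), while both Dag1, both Itga3 and both Lamb1 probe sets lie left of 0.

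The 13 genes not tested were Col4a3, Col4a4, Lama3, Lamb3, Itga2, Itga4, Itga7, Itgae, Itgal, Itgam, Itgb2, Itgb3 and Itgb4, with signals of 3.10 to 129 over the 6 arrays. Lama3 and Lamb3, chains of the laminin of skin and other surface epithelia, lay at 17.6 to 42.4 and 12.6 to 33.5. The integrin chains of leukocytes and platelets (Itgal, Itgam, Itgax, Itgae, Itgb2, Itgb2l, Itgb3 and Itgb7) had no signal above 233. Of the 3 tested, Itgb7, a lymphocyte chain, had -0.54 (limma, adjusted p = 0.242), Itgax had -0.56 (95% interval -1.90 to 0.79) and Itgb2l had 0.39 (95% interval -1.17 to 1.95). The macrophage and leukocyte markers Ptprc, Fcer1g and Adgre1 were below the filter, C1qb was the 1 of 10 that rose, and all 6 platelet markers measured were below it. The summed signal of the macrophage and leukocyte list was 2787 to 3056 on the mutant arrays, against 1825 to 2189.7 on the wild-type arrays, and its part in these values was not tested.

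Differences between chains were then taken within each array, for 10 pairs set after the values were seen. Lama1 minus Lama4 was -2.17 and -2.37 on the mutant arrays, against -0.13, -0.16, -0.37 and -0.08 on the wild-type arrays. The groups differed by -2.09, the most of the 10. Against Lamb1, Lamc1 and Lama5, Lama1 differed by -1.31, -1.78 and -1.57, with no overlap between the groups. Itga6 differed by -1.08 against its partner Itgb1 and by -1.31 against Itgav, without overlap, and by -0.36 against Itga3, where the groups overlapped. Col4a1 minus Col4a2 was 0.14 and 0.21 on the mutant arrays, against -0.15, -0.05, 0.24 and -0.11 on the wild-type arrays, so the head-to-head genes kept overlapping ratios. Groups did not overlap in 8 of the 10 pairs, most of which set a gene that fell against one that did not, so these differences are a description with no test.

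**Figure D5:**
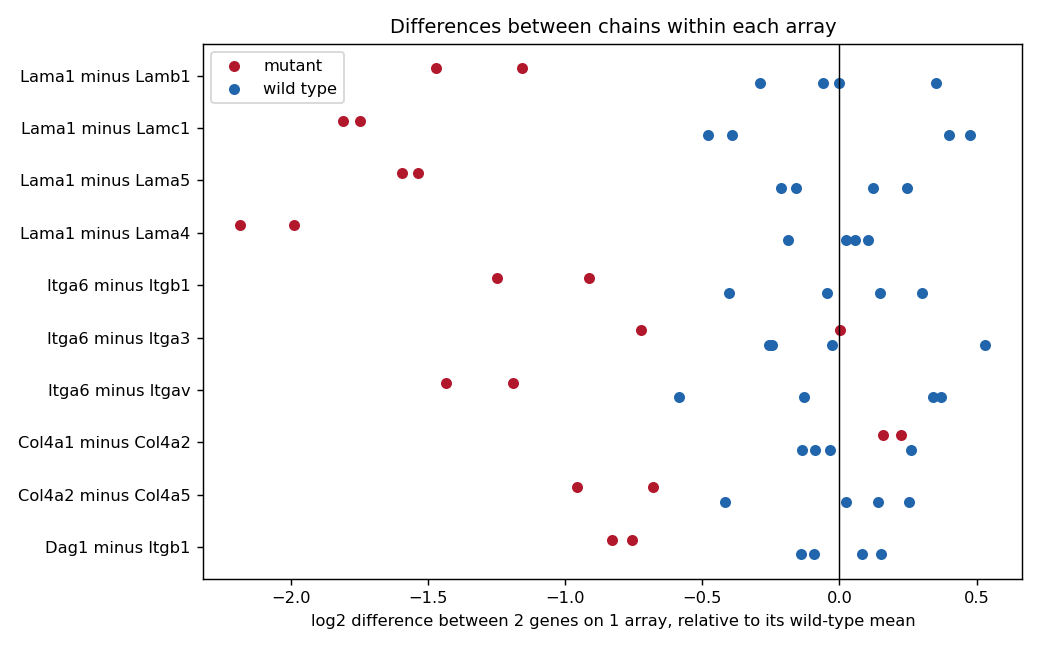
Log2 difference between 2 genes on the same array (x axis, relative to the wild-type mean of that pair) for 10 pairs, with mutant and wild-type arrays as points. Groups separate in 8 pairs and overlap for Itga6 minus Itga3 and Col4a1 minus Col4a2.

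Companion genes were taken from lists of matrix and adhesion genes. Beside the counts of these lists stand the 6.35% of all genes tested that fell and the 5.13% that rose. Of 18 further basement membrane and adjacent matrix genes tested, 3 fell, 6 rose and 9 did not pass. Npnt, nephronectin, the ligand of the alpha 8 beta 1 integrin, fell by 1.38 (471 ± 10.2 in mutant and 1265 ± 198 in wild-type kidneys, SD, n = 2 and 4). Tinagl1, a matrix glycoprotein, fell by 0.79 and Col18a1, a collagen of epithelial and vascular basement membranes, by 0.49. Rises were largest for the laminin-related guidance protein Ntn1 (1.75), Fbln2 (1.51), Tgfbi (1.49) and Smoc2 (1.43), all matrix proteins. Sparc and Fbln1, a matrix glycoprotein and a fibulin, had 0.03 and 0.08 (adjusted p = 0.926 and 0.665). The stromal and skeletal muscle marker sums given above were higher beside these rises, Ntn1 and Postn (1.11) being in the stromal list too. The smooth muscle and mesangium sum was lower.

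Of 16 genes of collagen processing and matrix turnover, none fell, 3 rose and 13 did not pass (limma; 1 lower and 5 higher at an unadjusted p under 0.05). The protease Mmp11 rose by 0.92, P4ha2, a prolyl hydroxylase of collagen, by 0.57 and the procollagen protease Bmp1 by 0.52. Serpinh1, the collagen chaperone, had -0.07 (adjusted p = 0.741) and Mmp14 0.57 (adjusted p = 0.0767). In the integrin adhesion complex, 1 of 23 fell, 2 rose and 20 did not pass, Itgb1bp1 being counted here again. This is near the 11.5% of all genes tested that passed. The tetraspanin Cd9, a membrane partner of integrins, fell by 0.55, while the kinase Src and the actin crosslinker Actn4 rose by 1.30 and 0.52. Tln1, talin, which activates integrins, and Actn1 had -0.0025 and -0.01 (adjusted p = 0.99 and 0.96).

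No member of the complex linked to dystroglycan passed among 7 tested (limma; 1 lower and 2 higher at an unadjusted p under 0.05). Sgce, a sarcoglycan, had -0.07 and Pomgnt1, which glycosylates dystroglycan, had 0.02 (adjusted p = 0.745 and 0.948). The widest differences of the list, picked out after the values were seen, were 1.30 for sarcospan, Sspn (adjusted p = 0.0585), 1.08 for Dtna (0.154) and -0.54 for Dtnb (0.0791), both dystrobrevins. Dtna was above the filter on mutant arrays alone, so its place among the tested genes rests on the group where it is high. Of 12 other matrix receptors, 1 fell and 3 rose. The glypican Gpc4 fell by 0.88, while Gpc3 rose by 1.56, the galectin Lgals1 by 0.69 and the syndecan Sdc2 by 0.54. Rpsa, the ribosomal protein also described as a laminin receptor, had -0.11 and Gpc1 -0.23 (adjusted p = 0.457 and 0.27).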

How the data were processed

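RNA of whole kidneys was hybridised to 6 Affymetrix MG_U74Av2 arrays, 1 per pool and 1 colour, after 1 round of amplification, per the labels' protocols. The deposited values are probe set signal intensity on a linear scale, made by the authors with GCOS per the submitters' processing notes, and neither version nor settings are given in the sources used here. Their mean without the lowest and highest 2% was 500.27 to 500.29 on every array, so they had been scaled, and no further normalization was made. No 2 arrays shared over 0.0403% of values. Current symbols came from the platform annotation and RefSeq gene identifiers, and 10833 of 12422 probe sets had 1 symbol. Probe sets with a suffix such as _f_at can bind related transcripts.

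Signals were analysed as log2(signal + 16), which understates changes of dim genes. limma (version 3.58.1 in R 4.3.3, lmFit and eBayes with a variance trend, no covariate) was run on the 7981 probe sets above the 40th percentile on at least 2 arrays, with Benjamini-Hochberg adjustment, after testing on simulated data. Alternatives were offsets of 1 and 64, other filters, quantile normalization, no trend, array weights, a replicate block, the mean of probe sets and arrays left out. The number of arrays limits the precision. All genes of the rule are named, those of companion lists by rank of difference or signal, and members and lists were chosen with earlier results of these data known. Sequences are RefSeq promoters of GRCm38.p6, where 26 of the 39 genes matched.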

Additional observations from a re-analysis of the deposited data

Results flagged for a closer look

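Among the 39 genes, the 4 wild-type arrays were examined for a single array far from the others, and 2 genes showed one. Itga7, the laminin-binding chain of muscle, read 19.5 on wild-type replicate 1, well below the 79.8 to 89.8 of the other wild-type arrays, and was not tested. Itgb1bp1 read 594 on wild-type replicate 2, above the 507 to 513 of the others. Chance flags about 1 in 20 such groups.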

How the results depend on the processing

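Over the 26 genes, 357 of the single-gene values kept their direction and side of the threshold, 18 lost the threshold, 9 gained it and 18 changed sign. Against 5 lower and 0 higher genes, 2 were lower and 1 higher without a variance trend, 3 were lower with the replicate block, 1 was higher with the 60th percentile filter and with quantile normalization, and 3 were higher with array weights. Array weights also gave 738 lower and 613 higher probe sets, against 488 and 371. Leaving out 1 array at a time gave 1 to 5 lower and 0 to 1 higher genes, and 188 to 553 lower and 114 to 448 higher probe sets, with fewer samples in each fit. A lone mutant array was then assumed to vary like the wild-type arrays. Same-numbered arrays did not deviate together (correlations 0.00305 and -0.0153), which gives no sign of pairing by number. With 2 mutant arrays, whose deviations mirror each other, this cannot settle whether the samples were paired. With the block, Itga6 had -0.689 (limma, adjusted p = 0.131) and Col4a1 -0.435 (adjusted p = 0.0902), and neither passed.

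The laminin median of 0.13 was 0.0193 with the 60th percentile filter and 0.0322 to 0.206 with single arrays left out. The type IV collagen median of -0.47 was 0.0271 with no filter, which adds Col4a3 and Col4a4. The integrin median of -0.28 was -0.0208 with the 60th percentile filter, -0.134 with the replicate block, -0.46 without wild-type replicates 2 and 4, -0.509 when probe sets were averaged per gene, and -0.457 to -0.0871 with single arrays left out. Signs changed for Col4a5 (-0.0797 to 0.389 with single arrays left out, -0.0456 without wild-type replicates 2 and 4), Hspg2 (-0.101 to 0.0988, 0.0717, and 0.0136 with array weights) and Itga5 (-0.166 to 0.337, -0.431, and -0.0933 with array weights). Itgb2l spanned -0.165 to 0.445 and Itgb5 -0.132 to 0.0902 with single arrays left out. After that averaging, Itgav had -0.475, Itgb1bp1 0.236 and Lama5 0.0704, as their probe sets differ in sign. The cause of the other changes was not tested. Some dim genes, such as Itgax, could not be fitted under every setting because they failed the filter there.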

Other observations

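Below the filter some probe sets still separated the groups, without a test and with no fold given because both groups lay near the low end of signals. How often this happens among all probe sets below the filter was not counted. Itgb2, the beta chain of leukocyte integrins, read 57.6 and 50.9 on the mutant arrays, against 22.3, 16.8, 3.10 and 48.9 on the wild-type arrays. Itgb3, the beta chain of the platelet fibrinogen receptor, read 16.8 and 7.56 on the mutant arrays, against 69.6, 48.95, 51.8 and 17.4 on the wild-type arrays. The second probe set of Itga7 read 79.2 and 89.6 on the mutant arrays, against 33.5, 27.1, 38.6 and 42.9 on the wild-type arrays. Other Itga7 probe sets overlapped between the groups. Dimmer probe sets of Itga4, Lama4 and Lamb3 lay above the wild-type range in the mutant, and one of Itga8 lay below it. Podocytes have Lama5 and Lamb2 in their basement membrane and Itga3 on their surface. The podocyte markers had 2 of 6 lower (Ptpro, -2.76, above the filter on wild-type arrays alone, and Vegfa, -0.87) and none higher, with a median of -0.60. Synpo had -0.72 and Wt1 -0.48 without passing (limma, adjusted p = 0.103 and 0.0823). Their summed signal, 6844 to 7033 on the mutant arrays, against 6820 to 7451 on the wild-type arrays, is mostly that of Tcf21 (0.13) and Foxc2 (0.22), which mesenchyme also expresses. Of 8 ureteric bud markers tested, 1 fell (Calb1, -0.61) and 2 rose (Krt18, 0.40, and Krt8, 0.36). Ret was below the filter, at 8.08 and 8.61 on the mutant arrays, against 86.25, 30.47, 104.04 and 71.29 on the wild-type arrays.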
